A study of Mus musculus with 8 samples.

Results

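A set of 7 genes of leukotriene and prostaglandin synthesis were followed through sorted medullary thymic epithelial cells (mTECs): Alox5, Alox5ap, Ltc4s, Lta4h, Ptgs1, Ptgs2 and Hpgds. They were chosen by name, as enzymes and a partner protein that turn arachidonic acid into lipid mediators, and make up 7 of the 25466 genes in the deposited table. All 7 passed the filter on low counts. The cells came from the thymus of wild-type mice, given in the study's methods as BL6N6 animals aged 4 to 6 weeks, and were sorted as CD45-negative, Epcam-positive and CDR1-negative cells. Surface Tspan8, a tissue-restricted antigen, and MHC class II split them into Tspan8negMHCIIlo, Tspan8negMHCIIhi, Tspan8posMHCIIhi and Tspan8posMHCIIlo, with 2 libraries labelled as biological replicates in each. No group carried a genetic change or received a treatment. How many mice went into a library is not given in the sources used here, so p-values measure the spread between these libraries.

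Leukotrienes begin with 5-lipoxygenase (Alox5), which oxidises arachidonic acid to leukotriene A4 with the help of the membrane protein FLAP (Alox5ap). Ltc4s joins leukotriene A4 to glutathione to give leukotriene C4, the parent of the cysteinyl leukotrienes, whereas Lta4h hydrolyses it to leukotriene B4. Prostaglandins begin with the cyclooxygenases Ptgs1 and Ptgs2, which make prostaglandin H2, and Hpgds, the haematopoietic prostaglandin D synthase, turns that into prostaglandin D2. Tuft cells, a chemosensory epithelial cell type found in the gut, airways and thymic medulla, are known to express several of these genes, and so do mast cells and myeloid cells.

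In the data, Alox5, Alox5ap, Ltc4s and Ptgs1 shared an order. They were highest in Tspan8posMHCIIlo, lowest in Tspan8negMHCIIhi and at similar intermediate levels in the other two subsets. Hpgds was higher in both Tspan8pos subsets and was not called between MHCII levels. Ptgs2 ran the other way, with its highest level in Tspan8negMHCIIhi, and Lta4h was called in no comparison. Levels are CPM, the count of a gene scaled to a fixed library total after TMM normalisation. Calls required an adjusted p under 0.01 (edgeR's quasi-likelihood test, Benjamini-Hochberg over 17006 genes) together with a log2 fold change of at least 1 in size.

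The sequences just before the start sites of Alox5 and Ptgs1, which moved together, and of Ptgs2, which moved against them, are shown because the 3 genes carry the main contrast. Each is 250 bases long, from RefSeq on GRCm38.p6, and is read 5′ to 3′ on the strand of its gene. The Alox5 window lay at chr6:116461179-116461428 on the minus strand, that of Ptgs1 at chr2:36230176-36230425 and that of Ptgs2 at chr1:150099781-150100030, both on the plus strand.
Alox5: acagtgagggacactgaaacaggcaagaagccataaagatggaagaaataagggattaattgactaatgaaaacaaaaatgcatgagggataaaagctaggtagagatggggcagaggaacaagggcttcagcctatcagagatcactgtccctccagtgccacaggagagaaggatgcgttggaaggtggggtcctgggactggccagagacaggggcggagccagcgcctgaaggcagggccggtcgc
Ptgs1: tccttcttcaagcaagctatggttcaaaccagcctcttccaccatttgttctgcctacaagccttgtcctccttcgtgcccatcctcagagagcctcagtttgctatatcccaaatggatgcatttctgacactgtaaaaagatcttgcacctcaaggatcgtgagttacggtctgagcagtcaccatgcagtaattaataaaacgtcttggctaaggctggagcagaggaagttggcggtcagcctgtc
Ptgs2: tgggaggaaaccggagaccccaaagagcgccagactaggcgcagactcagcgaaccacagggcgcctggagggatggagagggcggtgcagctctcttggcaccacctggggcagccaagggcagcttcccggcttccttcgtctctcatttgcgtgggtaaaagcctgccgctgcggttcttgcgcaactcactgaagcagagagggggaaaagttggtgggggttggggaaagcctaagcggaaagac

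The planned motif, searched on both strands, was the octamer ATGCAAAT, which POU class 2 factors bind and which is of interest here because Pou2f3 is the factor known to specify Tuft cells. Of the 6 members with an entry among the promoters, 1 held the octamer, namely Hpgds. Alox5ap had no entry. Over all 32851 promoter windows of the same length 526 held the octamer, or 1.6%. The Hpgds match is shown in capitals within 30 bases of the minus strand at chr6:65144886-65144915. It stood 174 to 167 bases before the RefSeq start but 4 to 11 bases inside the GENCODE gene, which begins further upstream.
Hpgds: ctttactctttATGCAAATacgttggacta

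The libraries held between 1941518 and 7783841 counts (median 4857083.5). Members were counted between 21 and 5636 times in a library, so none was near the floor of 3 counts. The sort could be seen in the RNA. Tspan8 was 37.8-fold higher in Tspan8posMHCIIlo than in Tspan8negMHCIIlo and 47.1-fold higher in Tspan8posMHCIIhi than in Tspan8negMHCIIhi, and H2-Ab1, a chain of MHC class II, was lower in each MHCIIlo subset than in its MHCIIhi counterpart, by 2.67-fold among Tspan8neg cells and 5.02-fold among Tspan8pos cells. H2-Ab1 was also lower in Tspan8pos than in Tspan8neg cells, by 3.75-fold at MHCIIlo (called) and 2-fold at MHCIIhi (not called). It differed by 1.34-fold between Tspan8posMHCIIhi and Tspan8negMHCIIlo, which was not called. The Tspan8 comparisons were therefore not matched for H2-Ab1 RNA. The 6 mTEC markers (Epcam, Krt5, Krt14, Aire, Cd80 and H2-Ab1) were detected in every library. The 7 thymocyte markers included Ptprc, which encodes CD45. They summed to 417 and 1180 CPM in the replicates of Tspan8negMHCIIlo against 68.4 to 219 CPM elsewhere. Both replicates of that subset thus stood above all other libraries, replicate 2 the further.

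Alox5 (chr6:116410077-116461178, minus strand) was measured at 76.1 and 102 CPM in Tspan8negMHCIIlo, 7.90 and 11.9 in Tspan8negMHCIIhi, 60.9 and 76.8 in Tspan8posMHCIIhi, and 479 and 446 in Tspan8posMHCIIlo. Both Tspan8posMHCIIlo libraries lay above every other library and both Tspan8negMHCIIhi libraries below, while the intermediate subsets overlapped. The log2 fold change between MHCIIlo and MHCIIhi was 3.13 (SE 0.228, adjusted p = 3.07e-06) among Tspan8neg cells and 2.75 (SE 0.2, adjusted p = 1.18e-05) among Tspan8pos cells. Between Tspan8pos and Tspan8neg it was 2.37 (SE 0.198, adjusted p = 4.6e-06) at MHCIIlo and 2.76 (SE 0.227, adjusted p = 4.69e-06) at MHCIIhi.

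Alox5ap (chr5:149264767-149288153, plus strand), whose product presents arachidonic acid to 5-lipoxygenase, was measured at 28.4 and 49.0 CPM in Tspan8negMHCIIlo, 4.37 and 4.87 in Tspan8negMHCIIhi, 40.4 and 61.4 in Tspan8posMHCIIhi, and 341 and 333 in Tspan8posMHCIIlo. It had the widest span of the members, with 78.2-fold between its lowest and its highest library. Tspan8posMHCIIlo again stood above and Tspan8negMHCIIhi below all other libraries. Its log2 fold change was 3.06 (SE 0.313, adjusted p = 2.7e-05) for MHCIIlo against MHCIIhi among Tspan8neg cells and 2.73 (SE 0.242, adjusted p = 3.25e-05) among Tspan8pos cells. For Tspan8pos against Tspan8neg it was 3.11 (SE 0.25, adjusted p = 3.56e-06) at MHCIIlo and 3.44 (SE 0.305, adjusted p = 8.15e-06) at MHCIIhi.

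Ltc4s (chr11:50236461-50238616, minus strand), the synthase of leukotriene C4, was measured at 19.1 and 20.3 CPM in Tspan8negMHCIIlo, 4.99 and 8.46 in Tspan8negMHCIIhi, 20.5 and 28.2 in Tspan8posMHCIIhi, and 104 and 83.5 in Tspan8posMHCIIlo. Tspan8posMHCIIlo was highest and Tspan8negMHCIIhi lowest once more, the 2 intermediate subsets lay next to each other without overlap, and the span was smaller, 20.9-fold from the lowest to the highest library. Its log2 fold change by MHCII was 1.5 (SE 0.275, adjusted p = 0.00126) among Tspan8neg cells and 1.93 (SE 0.23, adjusted p = 0.000233) among Tspan8pos cells. The first of these calls was lost without replicate 1 of Tspan8negMHCIIhi (1.13, adjusted p = 0.0187) and in a fit of its 4 libraries alone (1.44, adjusted p = 0.0122). By Tspan8 the log2 fold change was 2.24 (SE 0.239, adjusted p = 2.91e-05) at MHCIIlo and 1.8 (SE 0.265, adjusted p = 0.000321) at MHCIIhi.

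Ptgs1 (chr2:36230426-36252272, plus strand), the cyclooxygenase usually described as constitutive, was measured at 33.1 and 47.4 CPM in Tspan8negMHCIIlo, 13.1 and 12.6 in Tspan8negMHCIIhi, 45.2 and 52.4 in Tspan8posMHCIIhi, and 304 and 293 in Tspan8posMHCIIlo. The order was that of Alox5, with the 2 intermediate subsets overlapping. Its log2 fold change by MHCII was 1.66 (SE 0.196, adjusted p = 7.03e-05) among Tspan8neg cells and 2.61 (SE 0.174, adjusted p = 7.69e-06) among Tspan8pos cells. By Tspan8 it was 2.88 (SE 0.178, adjusted p = 5.82e-07) at MHCIIlo and 1.93 (SE 0.192, adjusted p = 1.88e-05) at MHCIIhi.

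Hpgds (chr6:65117293-65144908, minus strand), which makes prostaglandin D2, was measured at 39.9 and 38.4 CPM in Tspan8negMHCIIlo, 36.6 and 40.2 in Tspan8negMHCIIhi, 112 and 88.8 in Tspan8posMHCIIhi, and 148 and 137 in Tspan8posMHCIIlo. The Tspan8neg subsets overlapped each other and lay below all 4 Tspan8pos libraries. By Tspan8 the log2 fold change was 1.86 (SE 0.161, adjusted p = 6.01e-06) at MHCIIlo and 1.39 (SE 0.155, adjusted p = 4.49e-05) at MHCIIhi. By MHCII it was 0.02 (95% interval -0.34 to 0.38, adjusted p = 0.924) among Tspan8neg cells, a value whose sign changed with the processing, and 0.50 (95% interval 0.17 to 0.83, adjusted p = 0.0435) among Tspan8pos cells. Neither met the threshold, and both intervals stopped short of a log2 fold change of 1.

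Ptgs2 (chr1:150100031-150108227, plus strand), the inducible cyclooxygenase, was measured at 120 and 102 CPM in Tspan8negMHCIIlo, 606 and 722 in Tspan8negMHCIIhi, 342 and 248 in Tspan8posMHCIIhi, and 66.0 and 76.7 in Tspan8posMHCIIlo. No 2 subsets overlapped, and the highest and lowest subsets were those of Ptgs1 exchanged. MHCIIlo was lower than MHCIIhi in both Tspan8 classes, with a log2 fold change of -2.58 (SE 0.186, adjusted p = 2.93e-06) among Tspan8neg cells and -2.04 (SE 0.188, adjusted p = 4.25e-05) among Tspan8pos cells. Tspan8pos was lower than Tspan8neg at MHCIIhi (-1.17, SE 0.176, adjusted p = 0.000378), a call lost without replicate 2 of Tspan8posMHCIIhi (-0.94). At MHCIIlo the log2 value of -0.63 (95% interval -1.04 to -0.21, adjusted p = 0.0204) was not called.

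Lta4h (chr10:93453411-93484875, plus strand), the hydrolase of the leukotriene B4 branch, was measured at 71.6 and 102 CPM in Tspan8negMHCIIlo, 50.7 and 57.0 in Tspan8negMHCIIhi, 59.0 and 61.4 in Tspan8posMHCIIhi, and 42.3 and 48.7 in Tspan8posMHCIIlo. Its libraries spanned 2.4-fold, the narrowest range of the 7 genes. The log2 fold change by MHCII was 0.69 (95% interval 0.29 to 1.07, adjusted p = 0.00928) among Tspan8neg cells and -0.38 (95% interval -0.79 to 0.03, adjusted p = 0.198) among Tspan8pos cells. By Tspan8 it was -0.91 (95% interval -1.32 to -0.5, adjusted p = 0.00242) at MHCIIlo and 0.15 (95% interval -0.24 to 0.55, adjusted p = 0.527) at MHCIIhi, so 2 of these values passed the adjusted p but not the fold. Lta4h and the thymocyte markers were both highest in replicate 2 of Tspan8negMHCIIlo. Without that library the log2 difference from Tspan8negMHCIIhi was 0.41 (adjusted p = 0.0636), and without replicate 1 the value at MHCIIlo by Tspan8 was called (-1.14, adjusted p = 9.06e-05). Alox5, Alox5ap and Ptgs1 were higher in that replicate as well, and without it they were still called against Tspan8negMHCIIhi (2.91, 2.61 and 1.38). Replicate 1 of Tspan8negMHCIIlo held thymocyte signal as well, at 417 CPM, so leaving out replicate 2 did not remove it. The part of the thymocyte signal in the Lta4h values was not tested.

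**Figure D1:**
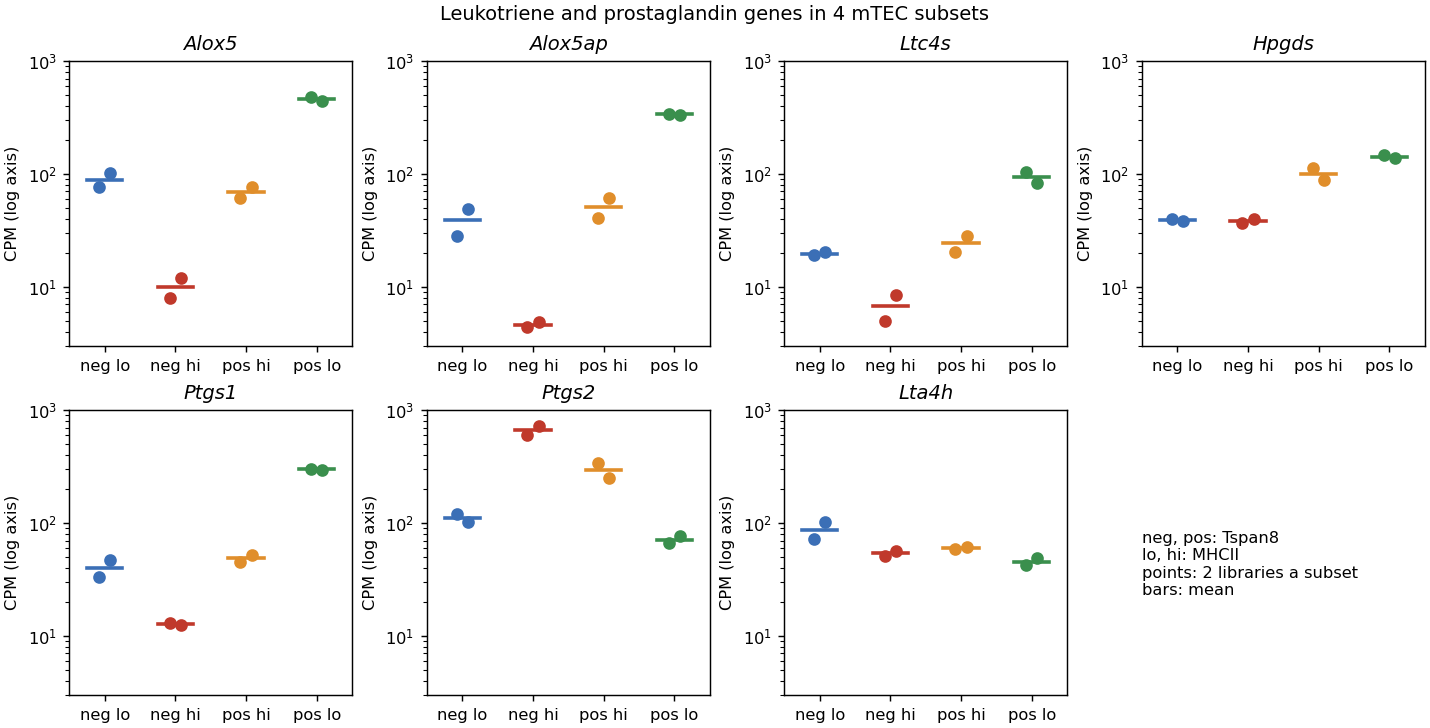
Level of each gene in the 4 subsets in CPM on a log axis, with a point for each of the 2 libraries and a bar for their mean. Alox5, Alox5ap, Ltc4s and Ptgs1 peak in Tspan8posMHCIIlo and are lowest in Tspan8negMHCIIhi, Hpgds steps up with Tspan8, Ptgs2 peaks at 606 and 722 CPM in Tspan8negMHCIIhi, and Lta4h stays between 42.3 and 102 CPM.

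Counted together, 5 of the 7 genes were called between Tspan8negMHCIIlo and Tspan8negMHCIIhi, against 22.7% of all genes tested. Of these, 4 were higher in Tspan8negMHCIIlo (9.67% of all genes) and Ptgs2 was lower (13.1%). The same split of 4 higher and 1 lower was found between Tspan8posMHCIIlo and Tspan8posMHCIIhi, where 7.21% of all genes were called, 2.62% as higher and 4.59% as lower. Between Tspan8posMHCIIlo and Tspan8negMHCIIlo 5 were higher and none lower, against 12.1% and 9.34% of all genes and 21.4% in either direction. Between Tspan8posMHCIIhi and Tspan8negMHCIIhi 5 were higher and Ptgs2 was lower, against 11% and 7.45%, or 18.5% in all. The median log2 fold change of the 7 genes in these comparisons was 1.5, 1.93, 2.24 and 1.8, beside 0.04, -0.01, -0.03 and -0.03 over all genes tested. The comparisons share subsets and are not independent of each other. In bulk samples, fewer cells of a type and less RNA per cell cannot be told apart.

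The 2 comparisons across the diagonal separated the genes further. Between Tspan8posMHCIIlo and Tspan8negMHCIIhi all but Lta4h were called, 5 as higher and Ptgs2 as lower, against 14.7% and 14.6% of all genes and 29.3% in all. The log2 fold change there was 6.17 for Alox5ap, 5.51 for Alox5, 4.54 for Ptgs1, 3.73 for Ltc4s, 1.88 for Hpgds and -3.20 for Ptgs2. Between the intermediate subsets Tspan8posMHCIIhi and Tspan8negMHCIIlo, where 24.7% of all genes were called (14.4% as higher and 10.3% as lower), only 2 of the 7 were: Hpgds at 1.36 (adjusted p = 4.91e-05) and Ptgs2 at 1.41 (adjusted p = 9.78e-05), both higher in Tspan8posMHCIIhi. For Alox5, Alox5ap, Ltc4s and Ptgs1 the log2 differences there lay between -0.37 and 0.38, with 95% intervals from -0.81 at the lowest to 0.93 at the highest, so the order of these subsets is not resolved for them.

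**Figure D2:**
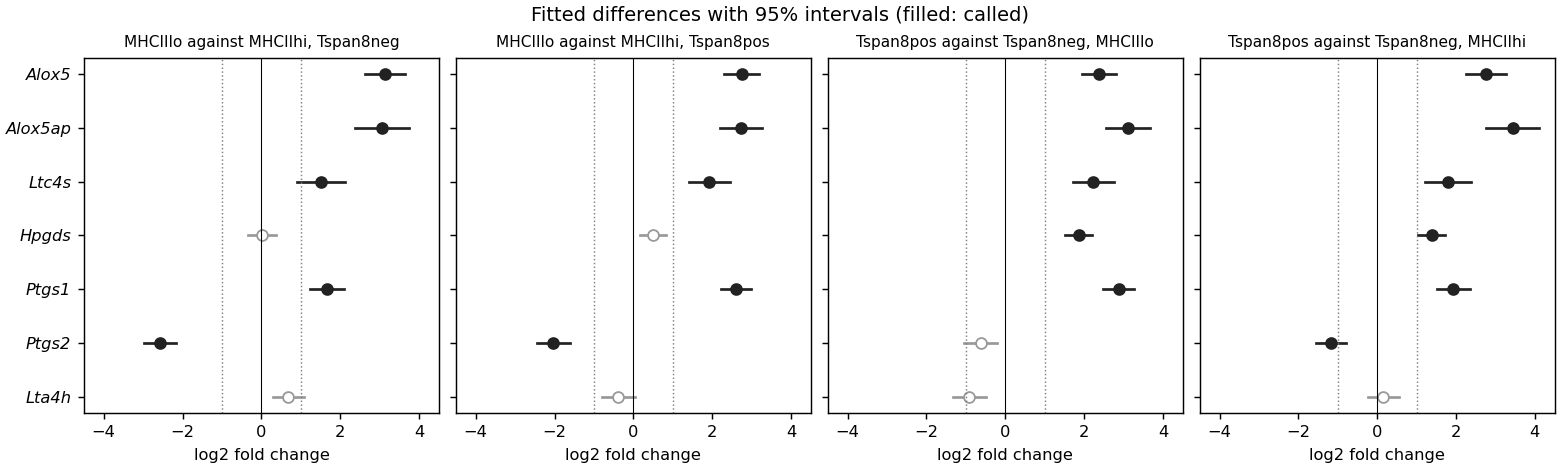
Fitted log2 fold change of each gene in the 4 comparisons within a Tspan8 or MHCII level, with 95% intervals as lines and filled points for called genes, and dotted lines at a log2 fold change of 1 in either direction. Alox5, Alox5ap, Ltc4s and Ptgs1 lie to the right in all 4 panels, Ptgs2 to the left, and Hpgds is filled only in the panels that compare Tspan8.

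The interaction asks whether the MHCII difference depends on Tspan8. By edgeR none of the 7 genes was called for it, where 4.6% of all genes were. At an unadjusted p under 0.05 there were 2, Ptgs1 with a larger rise at MHCIIlo among Tspan8pos cells (0.95 on the log2 scale, SE 0.259, adjusted p = 0.036) and Lta4h (-1.07, SE 0.256, adjusted p = 0.0211), and DESeq2 called 0. Without replicate 1 of Tspan8negMHCIIlo Lta4h was called (-1.32, adjusted p = 0.00115), and without replicate 2 Ptgs1 was called in its place (1.23, adjusted p = 0.00323).

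Levels of different genes were compared as CPM per kilobase of merged exons. In Tspan8posMHCIIlo the mean was 238 for Alox5ap, 113 for Alox5, 92.7 for Ltc4s, 76.8 for Ptgs1, 22.2 for Hpgds, 15.6 for Ptgs2 and 7.46 for Lta4h. In Tspan8negMHCIIhi the order was led by Ptgs2 at 145, and the other 6 genes lay between 2.41 for Alox5 and 8.83 for Lta4h.

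Next, 3 pairs of genes that act at the same step were then set against each other within each library. Of the summed per-kilobase level of the 2 cyclooxygenases, Ptgs1 made up 84.5% and 81.8% in the Tspan8posMHCIIlo libraries but 2.49% and 2.01% in Tspan8negMHCIIhi. It made up 24.5% and 35.4% in Tspan8negMHCIIlo and 13.5% and 19.9% in Tspan8posMHCIIhi. Ptgs1 was thus the more abundant cyclooxygenase transcript in Tspan8posMHCIIlo alone of the 4 subsets.

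Leukotriene A4 is the substrate of both Ltc4s and Lta4h. The share of Ltc4s in their summed per-kilobase level was 93.7% and 91.2% in Tspan8posMHCIIlo, 67.7% and 73.5% in Tspan8posMHCIIhi, 61.6% and 54.6% in Tspan8negMHCIIlo, and 37.2% and 47.2% in Tspan8negMHCIIhi. No subsets overlapped in this share. Prostaglandin H2 is used, among others, by Hpgds and by Ptges, the inducible prostaglandin E synthase. This pair leaves out Ptges3, also listed among the prostanoid synthases. Its subset means ran from 22.6 to 31.4 CPM per kilobase, against 12.4 to 30.5 for Ptges. The pair also leaves out Ptgds, the second prostaglandin D synthase. Its mean CPM per kilobase was 36.7 in Tspan8posMHCIIhi and 28.7 in Tspan8negMHCIIhi, where Hpgds was at 15.7 and 5.98. At MHCIIlo Ptgds was the lower, at 6.65 against 22.2 in Tspan8posMHCIIlo and 1.995 against 6.09 in Tspan8negMHCIIlo. The share of Hpgds was 47.9% and 47% in Tspan8posMHCIIlo, 36% and 31.7% in Tspan8posMHCIIhi, 28.8% and 39% in Tspan8negMHCIIlo, and 19.6% and 21.4% in Tspan8negMHCIIhi. Shares depend on the length given to a gene. With the median length of its protein-coding transcripts, Hpgds came to 61.2% and 60.4% in Tspan8posMHCIIlo and Ltc4s to 48.9% and 41.7% in Tspan8negMHCIIlo, while the order of the libraries, which does not depend on length, stayed as given.

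**Figure D3:**
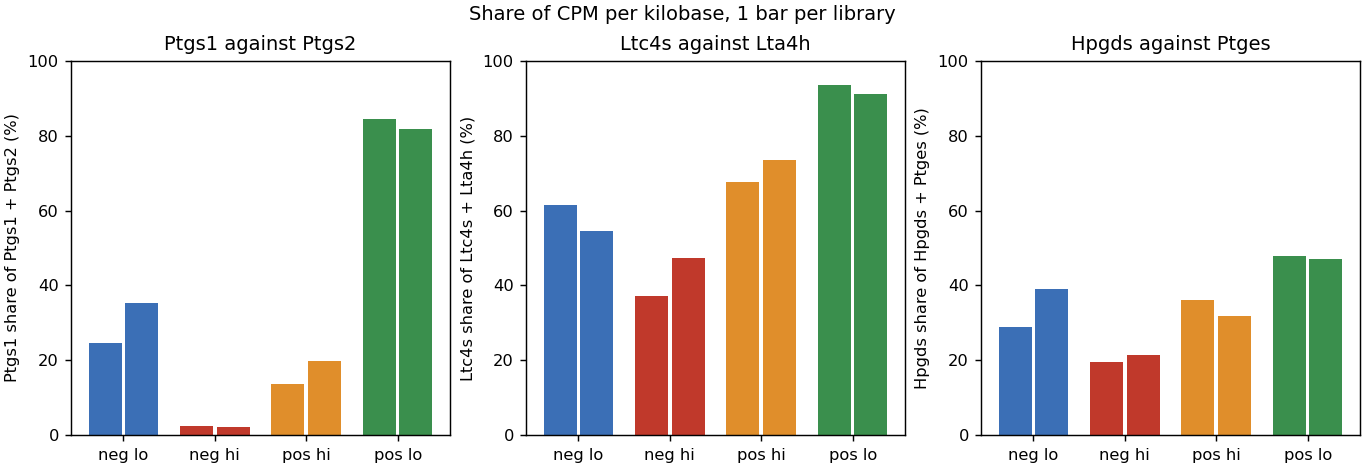
Share of the first gene in the summed CPM per kilobase of a pair, in percent, with 1 bar per library and colours for the subsets. Ptgs1 exceeds Ptgs2 in Tspan8posMHCIIlo alone (84.5% and 81.8%), Ltc4s rises to 93.7% and 91.2% there against Lta4h, and Hpgds reaches 47.9% and 47% against Ptges.

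The summed markers of Tuft cells were highest in Tspan8posMHCIIlo and lowest in Tspan8negMHCIIhi, as were Alox5, Alox5ap, Ltc4s and Ptgs1. Ptgs2 ran the other way, and Hpgds followed the markers less closely. Lta4h did not follow them and was lowest in Tspan8posMHCIIlo, at 42.3 and 48.7 CPM. The 14 Tuft markers, among them Pou2f3, the channel gene Trpm5 and the cytokine gene Il25, summed to 8460 to 8570 CPM in Tspan8posMHCIIlo, 1490 to 2070 in Tspan8negMHCIIlo, 1350 to 1570 in Tspan8posMHCIIhi and 206 to 244 in Tspan8negMHCIIhi, and none was at 0 in any library. By MHCII 12 of 14 were called higher at MHCIIlo among Tspan8neg cells (9.67% of all genes) and 14 among Tspan8pos cells (2.62%), and by Tspan8 13 were called higher at MHCIIlo (12.1%) and 13 at MHCIIhi (11%). The median log2 CPM of the list was subtracted from that of each member to see how closely each followed it. Over the 8 libraries the difference ranged by 1.33 for Ptgs1, 1.32 for Ltc4s, 1.66 for Alox5 and 2.14 for Alox5ap, and by 2.77 for Hpgds, 4.44 for Lta4h and 7.38 for Ptgs2. The Tuft median itself ran from 3.25 to 7.53, so a gene at a constant level would also give a wide range. Alox5 lay 1.46 and 1.27 above the Tuft median in Tspan8posMHCIIlo and between -0.2 and 0.06 of it in Tspan8negMHCIIhi.

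**Figure D4:**
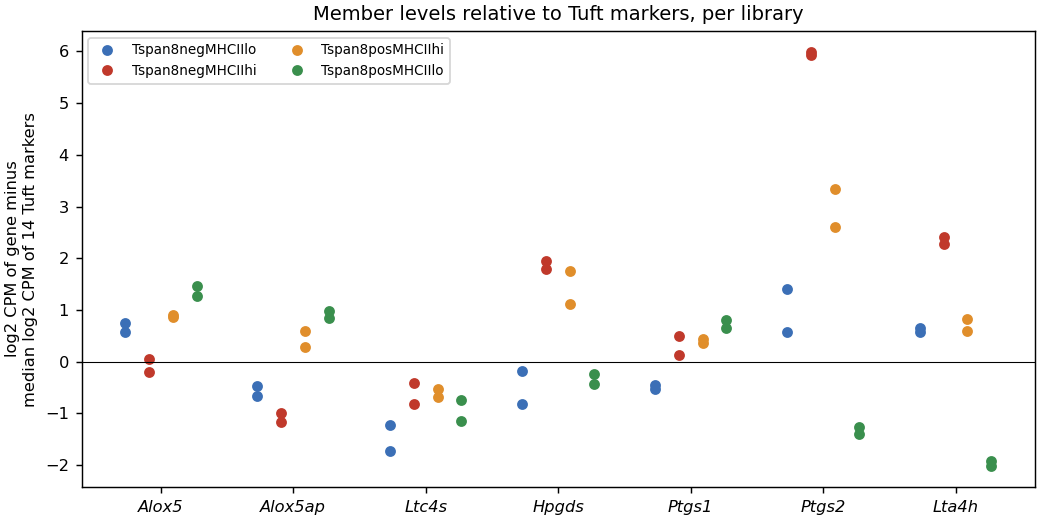
Log2 CPM of each gene minus the median log2 CPM of 14 Tuft markers in the same library, coloured by subset, with 2 points a subset. A gene that followed the markers exactly would give a flat row of points. Ptgs1 and Ltc4s range by 1.33 and 1.32, Ptgs2 by 7.38.

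For each member the 3 genes with the most similar profile were taken, by the root mean square (RMS) difference of centred log2 CPM over the 8 libraries among 11041 other genes. Nearest to Alox5 were Trpm5 (RMS 0.124), which encodes the cation channel of taste and Tuft cells, Avil (0.15), which encodes the actin-binding protein advillin, and Vav1 (0.163), a guanine nucleotide exchange factor. Trpm5 and Avil belong to the Tuft list. Nearest to Alox5ap were Sh2d6 (0.14), also of that list, then Pik3cg (0.235), a catalytic PI3-kinase subunit, and Bmx (0.282), a Tec-family kinase. Ptgs1 had Ptpn18 (0.192), the interleukin-25 receptor chain gene Il17rb (0.227), again of the Tuft list, and Tspan6 (0.277). Ltc4s had Ethe1 (0.204), Pnpla3 (0.239) and Chn2 (0.24), none of them among the 14 listed Tuft markers.

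The nearest genes of Hpgds, Ptgs2 and Lta4h held no gene of the Tuft list either, so 4 of the 7 members had none from that list. Hpgds had Wwc1 (0.131), Fam129b (0.134) and Tnfaip2 (0.157). Ptgs2 had Srgn (0.183), which encodes the granule proteoglycan serglycin, Myo3b (0.199) and Spock3 (0.216). Lta4h had Paxip1 (0.115), Focad (0.122) and N4bp2 (0.123). Between members, Alox5 and Alox5ap were the most alike (0.376), followed by Ltc4s and Ptgs1 (0.384), and Alox5ap and Ptgs2 the least (3.33). The libraries share 1 set of normalisation factors, and these values are descriptions.

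Mast cells and myeloid cells also use these enzymes, so their markers were read in the same libraries. In Tspan8posMHCIIlo, where Alox5, Alox5ap, Ltc4s, Ptgs1 and Hpgds were highest, the mast cell markers Fcer1a, Ms4a2, Tpsb2, Cma1 and Cpa3 were at 0 in replicate 1 and between 0 and 0.819 CPM in replicate 2. Kit went the other way and was highest there, at 316 and 274 CPM against 96.9 to 174 in the other libraries, while Hdc was lowest there, at 22.5 and 23.8 against 981 and 902 in Tspan8negMHCIIhi. The 8 mast cell markers summed to 299 to 339 CPM in Tspan8posMHCIIlo, mostly from Kit, and to 1080 to 1180 in Tspan8negMHCIIhi, mostly from Hdc. The 8 macrophage markers summed to 241 to 274 CPM in Tspan8posMHCIIlo and 467 to 534 in Tspan8negMHCIIhi, and the 7 neutrophil markers to 68.7 to 91.9 and 183 to 221. The gate was CD45-negative, but Ptprc was at 54.4 and 72.9 CPM in Tspan8posMHCIIlo and 89.3 and 205 in Tspan8negMHCIIlo against 11.9 to 25 in the MHCIIhi libraries, so it was higher at MHCIIlo, as were Alox5, Alox5ap, Ltc4s and Ptgs1. The part of CD45-positive cells in the results for these genes was not tested.

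Ptgs2, in contrast, was highest in Tspan8negMHCIIhi, where the mast cell and neutrophil lists were highest too and the macrophage list was at or near its highest. The macrophage list stood at 428 to 469 CPM in Tspan8posMHCIIhi and 97.7 to 143 in Tspan8negMHCIIlo, the neutrophil list at 131 to 152 and 15.7 to 58.5, and the mast cell list at 326 to 333 and 170 to 192. Macrophage markers differed among themselves between the MHCIIhi subsets. In Tspan8negMHCIIhi Adgre1 was at 15.2 and 23.1 CPM, Csf1r at 39.1 and 30.4, Mrc1 at 40.6 and 50.9 and Cd68 at 23.7 and 21.4. In Tspan8posMHCIIhi they were at 1.99 and 4.47, 29.9 and 30.9, 39.0 and 37.4, and 42.4 and 46.9. The 6 dendritic cell markers summed to 243 to 245 CPM in Tspan8negMHCIIhi and to 47.8 to 107 elsewhere. The study describes Aire as a regulator of part of the tissue-restricted genes that mTECs express. Aire was at 2660 and 2480 CPM in Tspan8negMHCIIhi and at 14.8 to 541 elsewhere. Ptprc was at 11.9 and 22.8 CPM in Tspan8negMHCIIhi. Whether the marker RNA came from such cells or from the mTECs themselves was not tested. The part of these cells in the Ptgs2 result was not tested either.

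The other genes of the pathway were read from a list of 60, of which 59 were in the table and 49 were tested. Between Tspan8negMHCIIlo and Tspan8negMHCIIhi 20 were called lower and 1 higher, where 13.1% and 9.67% of all genes were. Between Tspan8posMHCIIlo and Tspan8posMHCIIhi 9 were lower and none higher, against 4.59% and 2.62%, and DESeq2 called 8 lower and 0 higher. At an unadjusted p under 0.05 by edgeR, 7 were higher, all by a log2 value under 1. When any 1 of these 4 Tspan8pos libraries was left out, 1 to 4 genes of the list were called lower. By Tspan8, 16 were higher and 2 lower at MHCIIlo (12.1% and 9.34% of all genes), and 11 higher and 1 lower at MHCIIhi (11% and 7.45%). The interaction was called for 10 of the 49, against 4.6% of all genes, with 8 above 0 and 2 below.

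Phospholipases A2 release arachidonic acid from membranes, and Mgll, a monoacylglycerol lipase, frees it from 2-arachidonoylglycerol. Of 16 genes in this group, all but Mgll phospholipases A2, 10 were called lower in Tspan8negMHCIIlo than in Tspan8negMHCIIhi, against 13.1% of all genes: Pla2g1b, Pla2g2d, Pla2g2e, Pla2g2f, Pla2g3, Pla2g4a, Pla2g4c, Pla2g4d, Pla2g4e and Pla2g4f. Pla2g4a, the cytosolic enzyme that feeds both eicosanoid branches, was at 27.2 and 24.8 CPM in Tspan8negMHCIIlo, 81.5 and 89.0 in Tspan8negMHCIIhi, 47.4 and 47.5 in Tspan8posMHCIIhi and 49.5 and 50.6 in Tspan8posMHCIIlo. Its log2 fold change by MHCII among Tspan8neg cells was -1.72 (adjusted p = 8.62e-06) and its interaction 1.8 (adjusted p = 0.000527), so it did not follow Alox5. Among Tspan8pos cells Pla2g1b, Pla2g2e, Pla2g4c and Pla2g4f were lower at MHCIIlo.

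By Tspan8, 5 of the 16 were higher in Tspan8posMHCIIlo than in Tspan8negMHCIIlo, against 12.1% of all genes (Pla2g2e, Pla2g2f, Pla2g3, Pla2g4e and Pla2g4f). Pla2g2f was at 286 and 220 CPM in Tspan8posMHCIIlo and 283 and 243 in Tspan8posMHCIIhi against 8.15 to 25.2 in the Tspan8neg libraries, with a log2 fold change of 4.57 (adjusted p = 2.03e-07) at MHCIIlo and 3.48 (adjusted p = 5.23e-07) at MHCIIhi. At MHCIIhi Pla2g2e, Pla2g3 and Pla2g4e were higher as well and Pla2g4d was lower. Pla2g1b, Pla2g2e and Pla2g4d had at most 1 count in each Tspan8negMHCIIlo library and were at least 16.5-fold, 7.4-fold and 21.2-fold higher in Tspan8negMHCIIhi, against a floor of 3 counts per library. An exon of Pla2g3 overlaps Inpp5j on the opposite strand and one of Pla2g4e overlaps a gene on the same strand, so their counts are uncertain.

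The other lipoxygenases numbered 6. In Tspan8negMHCIIlo 4 were lower than in Tspan8negMHCIIhi (Alox12, Alox12b, Alox12e and Alox8), against 13.1% of all genes. By Tspan8, 4 were higher in Tspan8posMHCIIlo than in Tspan8negMHCIIlo (Alox12, Alox12b, Alox8 and Aloxe3; 12.1% of all genes) and 3 at MHCIIhi (Alox12, Alox12b and Aloxe3; 11% of all genes). Alox12b was at 137 and 143 CPM in Tspan8posMHCIIlo against 3.09 and 6.37 in Tspan8negMHCIIlo, a log2 fold change of 4.85 (adjusted p = 2.92e-07). Aloxe3, its partner in the epidermal barrier, was at 212 and 217 against 10.4 and 6.60 (4.67, adjusted p = 1.6e-07).

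Of 7 terminal prostanoid synthases tested, Ptgds was called lower at MHCIIlo in both Tspan8 classes (13.1% and 4.59% of all genes), and higher by Tspan8 were 2 at MHCIIlo (12.1%) and 1 at MHCIIhi (11%). Ptgds, the other prostaglandin D synthase, was at 2.81 and 3.77 CPM in Tspan8negMHCIIlo, 39.1 and 55.5 in Tspan8negMHCIIhi, 61.3 and 59.7 in Tspan8posMHCIIhi and 12.1 and 9.83 in Tspan8posMHCIIlo. It was lower at MHCIIlo in both Tspan8 classes, by a log2 value of -3.83 (adjusted p = 2.78e-06) and -2.52 (adjusted p = 4.24e-05), where Hpgds was not called. It was higher in Tspan8posMHCIIlo than in Tspan8negMHCIIlo (1.66, adjusted p = 0.00187), as was Hpgds. Cbr1, a carbonyl reductase that acts on prostaglandins, was higher in Tspan8pos cells at both MHCII levels (1.32, adjusted p = 0.000244, and 1.68, adjusted p = 5.55e-05).

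Among genes that process leukotriene C4 and their relatives, the gamma-glutamyl transferases Ggt1 and Ggt5, which give leukotriene D4, went apart. Ggt5 was at 202 and 157 CPM in Tspan8negMHCIIlo and 26.4 and 19.1 in Tspan8posMHCIIlo, lower by Tspan8 at MHCIIlo (-3.05, adjusted p = 1.42e-06) and by MHCII among Tspan8pos cells (-1.19, adjusted p = 0.00334). Ggt1 was higher in Tspan8posMHCIIlo than in Tspan8negMHCIIlo (1.76, adjusted p = 0.00852) and lower in Tspan8negMHCIIlo than in Tspan8negMHCIIhi (-2.60, adjusted p = 0.000504). The microsomal glutathione transferases Mgst1 and Mgst3, relatives of Ltc4s, were higher in Tspan8posMHCIIlo than in Tspan8negMHCIIlo (1.69 and 1.58), and Mgst1 also at MHCIIhi (2.25).

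Of the genes for export and breakdown, Hpgd, the dehydrogenase that inactivates prostaglandins, was the one gene of the list called higher in Tspan8negMHCIIlo than in Tspan8negMHCIIhi. It was at 59.8 and 38.0 CPM against 7.69 and 14.4 (2.10, adjusted p = 0.000296). It was lower in Tspan8posMHCIIlo than in Tspan8negMHCIIlo (-1.83, adjusted p = 0.00095), opposite to Alox5 and Ptgs1. Ptgr1, a reductase that inactivates prostaglandins and leukotriene B4, was higher in Tspan8pos cells at both MHCII levels (3.03, adjusted p = 1.77e-06, and 2.09, adjusted p = 1.1e-05). Abcc1, which exports leukotriene C4, was lower in Tspan8negMHCIIlo than in Tspan8negMHCIIhi (-1.20, adjusted p = 0.000101).

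Receptors were tested for 6 of 14 genes. Cysltr2, a receptor of the cysteinyl leukotrienes, was at 13.2 and 11.3 CPM in Tspan8negMHCIIlo, 41.8 and 48.2 in Tspan8negMHCIIhi, 61.7 and 49.4 in Tspan8posMHCIIhi and 26.4 and 26.8 in Tspan8posMHCIIlo. It was lower at MHCIIlo in both Tspan8 classes (-1.88, adjusted p = 3.12e-05, and -1.06, adjusted p = 0.00237), against the direction of Ltc4s. Ptger3 and Ptgir, receptors of prostaglandin E2 and prostacyclin, were lower at MHCIIlo in both classes too. Ptgir had at most 3 counts in each Tspan8posMHCIIlo library and was at least 5.08-fold higher in Tspan8posMHCIIhi. Ptgdr, a receptor of prostaglandin D2, was at 25.3 and 23.4 CPM in Tspan8posMHCIIhi against 2.29 and 1.28 in Tspan8negMHCIIhi (3.82, adjusted p = 4.91e-05), with exons that overlap a gene on the opposite strand.

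**Figure D5:**
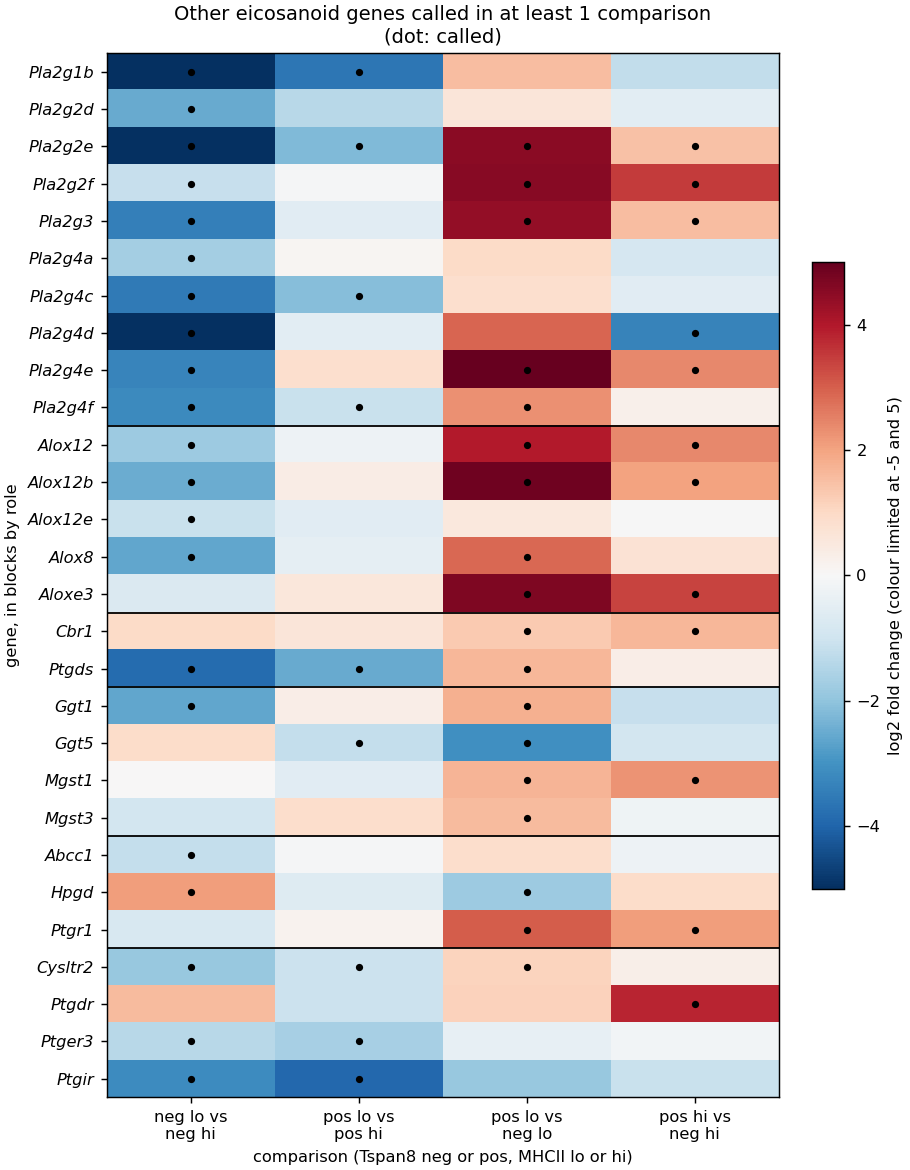
Fitted log2 fold change of the other eicosanoid genes called in at least 1 of the 4 comparisons, in blocks by role (phospholipases, lipoxygenases, prostanoid synthases, leukotriene C4 processing, catabolism and transport, receptors), with colour limited at -5 and 5 and a dot where a gene was called. The 2 MHCII columns hold 20 and 9 calls to the lower side, and the 2 Tspan8 columns 16 and 11 to the higher side; values of genes at the floor in a subset are not resolved folds.

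Exons of Alox5ap, Ltc4s and Ptgs1 overlap a gene on the opposite strand by 189, 268 and 148 bases. The sources differ on whether the libraries kept strand. The partner of Alox5ap had at most 2 counts in a library and that of Ltc4s between 3 and 36.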

How the data were processed

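RNA-seq of sorted mouse mTECs gave 8 libraries, 2 for each of 4 subsets, grouped by the sample descriptions. Per the labels and the study's methods, the authors quantified reads with Salmon 1.8.0 on Gencode transcripts (mm10) and tested with DESeq2 1.30.0. They deposited 1 table of estimated counts per gene, all whole numbers and not normalised, so rounding changed no value. Here edgeR 4.0.16 was run in R 4.3.3 with TMM, filterByExpr, 1 fit of all 8 libraries with a mean per subset, and the quasi-likelihood test, two-sided, with Benjamini-Hochberg adjustment over 17006 genes. Each standard error is the size of the log2 value over the root of F. An exact permutation test of 2 against 2 cannot go below p = 0.333, so none is given. Gene positions and merged exon lengths come from GENCODE M21 (GRCm38), where 25336 of 25466 identifiers matched. Totals ran from 1941518 to 7783841, and the floor of 3 counts covers counting error only, since PCR-amplified reads are not independent molecules.

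The members, lists and tests were chosen with earlier results of these data known. Named are all members, each listed eicosanoid gene called within a Tspan8 or MHCII level, and the 3 genes of at least 10 CPM nearest each member. Ptges, Mgll and the markers named are exceptions, as are the lengths of coding transcripts and the alternatives for the other eicosanoid genes, which were added after their values were seen. Of promoter motifs, 4 besides the octamer were searched with the values known and dropped as not planned. Alternatives were DESeq2 1.42.0, its size factors in edgeR, no filter, at least 10 counts in 4 libraries, the replicate block, thinning to 1941518 counts, the 4 libraries of a contrast, an adjusted p of 0.05, no fold limit, and leaving out each library. The scripts were tested on simulated data. Protein sequences were not used here.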

Additional observations from a re-analysis of the deposited data

Results flagged for a closer look

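Lta4h, the hydrolase of the leukotriene B4 branch, had log2 fold changes of opposite sign by MHCII in the 2 Tspan8 classes. Neither was called. The value was 0.685 (95% interval 0.29 to 1.07) among Tspan8neg cells and -0.382 (95% interval -0.79 to 0.03) among Tspan8pos cells. The second interval included no change, so a fall among Tspan8pos cells was not resolved. Both Tspan8negMHCIIlo libraries lay above both Tspan8negMHCIIhi libraries, and both Tspan8posMHCIIlo libraries lay below both Tspan8posMHCIIhi libraries. The difference between the 2 log2 fold changes was -1.07 (SE 0.256, unadjusted p = 0.00162). It was tested with the interaction term in edgeR, which does not test for opposite signs, and did not pass the threshold (adjusted p = 0.0211). Over the alternatives it ranged from -1.32, without replicate 1 of Tspan8negMHCIIlo, to -0.792. The value among Tspan8neg cells ranged from 0.415 to 0.918 and was lowest without replicate 2 of Tspan8negMHCIIlo, the library with the most thymocyte signal. The rule that lists libraries moving in opposite directions was written after the values of Lta4h had been seen.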

How the results depend on the processing

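Of the counts of members called, 114 of 118 values under the alternatives stayed within 1.5 times the reported count. Leaving out each library in turn gave 4 to 5 members called between Tspan8negMHCIIlo and Tspan8negMHCIIhi, 5 to 5 between the Tspan8pos subsets, 5 to 6 by Tspan8 at each MHCII level, 6 to 6 and 2 to 2 in the diagonal comparisons, and 0 to 1 for the interaction. The count for the interaction went from 0 to 1 with the replicate block (Lta4h, -1.09) and at an adjusted p of 0.05 (Lta4h, -1.07), as without either library of Tspan8negMHCIIlo.

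Signs changed for Hpgds between Tspan8negMHCIIlo and Tspan8negMHCIIhi, a value near 0, which became -0.061 with DESeq2 and with its size factors, -0.046 without a filter, -0.016 with at least 10 counts in 4 libraries, -0.06 after thinning, -0.049 with the 4 libraries alone and -0.132 without replicate 1 of Tspan8negMHCIIhi (up to 0.059 without another library). Lta4h between the MHCIIhi subsets became -0.001 without that same library (up to 0.207 without another), and the interaction of Alox5ap 0.167 after thinning and 0.117 without replicate 2 of Tspan8negMHCIIlo (-0.69 without replicate 1). The cause was not tested.

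Same-numbered libraries correlated in their deviations from the subset means by 0.0189 to 0.222 over the 6 pairs of subsets, with 2 pairs under 0.1, so the numbers were not read as pairing, and the block changed no call of a member but Lta4h. Calls among the other eicosanoid genes ranged under the alternatives from 17 to 20 lower in Tspan8negMHCIIlo than in Tspan8negMHCIIhi (1 to 4 higher), 1 to 11 lower in Tspan8posMHCIIlo than in Tspan8posMHCIIhi (0 higher), 12 to 19 higher by Tspan8 at MHCIIlo and 10 to 12 at MHCIIhi. With 2 libraries a subset and a biological coefficient of variation of 15.5%, small differences were not resolved.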
